A study of Mus musculus with 12 samples.

Results

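The 10 genes described here are the G1 cyclins (the D-type cyclins Ccnd1, Ccnd2 and Ccnd3 and the E-type cyclins Ccne1 and Ccne2), their kinases Cdk4 and Cdk6, and the retinoblastoma family (Rb1, Rbl1 and Rbl2), taken by symbol from the 20661 genes of the count tables. RNAseq and ribosome profiling were performed on mouse embryonic fibroblasts (MEFs) at passage 4 in 3 groups, with 2 replicates per group and assay and 12 libraries in all. WT-shSCR cells were wildtype (labelled strain C57BL/6J) and carried a scrambled lentiviral hairpin. WT-shARF cells were wildtype of the same label and carried a hairpin against ARF. Arf-/--shSCR cells (strain B6.129X1-Cdkn2atm1Cjs/KaiJ) lacked the first exon of Arf, which a neomycin cassette replaces, and carried the scrambled hairpin. All 3 groups were thus transduced and selected with puromycin. The paper's methods name another wildtype strain, B6129SF2/J, so knockout and strain background cannot be told apart in any comparison with Arf-/--shSCR. Nothing in the labels says whether replicates were separate isolates of cells, and p-values then measure only the spread between these libraries.

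In a resting cell the retinoblastoma proteins hold E2F transcription factors in check. Growth signals raise the D-type cyclins, which bind Cdk4 or Cdk6 and phosphorylate the retinoblastoma proteins. E2F then turns on the E-type cyclins, which act with Cdk2, and the genes of DNA replication. INK4 proteins block Cdk4 and Cdk6, and p21 and p27 bind the cyclin-kinase complexes. The Cdkn2a locus encodes both the INK4 protein p16 and ARF, which stabilises p53 by holding back Mdm2, and p53 in turn induces p21.

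The libraries held 1578627 to 3989908 counts on genes for RNA and 2544319 to 5157572 for footprints. Levels are given as CPM, counts relative to the library total, scaled with TMM factors over the 6 libraries of an assay, always with the 1st replicate before the 2nd. Changes are log2 fold changes ± SE with n = 2 libraries per group, and a gene was called when edgeR's quasi-likelihood test put its adjusted p under 0.05 (Benjamini-Hochberg over all genes tested). The 9 fibroblast markers, with Col1a1 and Vim among them, had counts in every library. Their summed CPM was highest in the libraries labelled WT-shARF. Their summed RNA was 14162 and 14698 CPM in WT-shSCR, 16583 and 17391 CPM in the WT-shARF-labelled libraries and 14310 and 13252 CPM in Arf-/--shSCR. For WT-shARF 2 of 7 tested were called higher in RNA and 3 of 8 in footprints. In the knockout 2 of 8 were called higher in RNA and, of 9 in footprints, 4 higher and 2 lower. In the knockout against the WT-shARF-labelled libraries, 1 of 8 was called higher and 1 lower in RNA. In footprints 2 of 9 were called higher and 4 lower there. The shares of all genes called in either direction in that comparison were 2.57% and 8.23%. The 12 macrophage markers were present too and moved with the groups. Their summed RNA was 715 and 694 CPM in WT-shSCR, 345 and 258 CPM in the WT-shARF-labelled libraries and 61.9 and 102 CPM in Arf-/--shSCR, and their summed footprints were 814 and 785, 375 and 298 and 58.3 and 71.9 CPM in the same order. No macrophage marker was at 0 in both libraries of a group. Epithelial and mesothelial markers moved the other way in the knockout, from 91.9 and 94.9 CPM of RNA in WT-shSCR to 159 and 181 CPM. Called lower were 10 of 12 macrophage markers tested in knockout RNA and 6 of 12 for WT-shARF, and called higher were 4 of 6 epithelial and mesothelial markers tested in knockout RNA. For WT-shARF only 2 of the latter were tested in RNA, of which 1 was called lower, and the 1 skeletal muscle marker tested was called lower in both assays. Among all genes tested, 7.93% were called in either direction in knockout RNA and 18.5% in knockout footprints. For WT-shARF these shares were 7.28% and 11.1%. Endothelial markers summed to 23.6 to 44.4 CPM of RNA and skeletal muscle markers to 45.6 to 142 CPM, with the endothelial marker Cdh5 at 0 in 5 and the muscle marker Myf5 at 0 in all 6 RNA libraries. In bulk cultures, fewer cells of a type and less RNA per cell cannot be told apart, and the part of these other cells in the results that follow was not tested.

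Cdkn2a, the targeted gene, was higher and not lower in the libraries labelled WT-shARF, in RNA and footprints. The paper reports loss of ARF protein after knockdown by immunoblot, and the counts here do not measure protein. Its RNA was at 44.8 and 42 CPM in WT-shSCR and 644 and 668 CPM in the WT-shARF-labelled libraries, 15-fold higher (3.91 ± 0.16, adjusted p = 5.57e-18). Footprints on Cdkn2a were 7.96-fold higher there as well (2.99 ± 0.14, adjusted p = 3.49e-17). In Arf-/--shSCR the RNA was at 27.7 and 32.2 CPM and the footprints at 39.6 and 34.4 CPM. These counts take in the exons that p16 shares with ARF, and the knockout leaves those in place, so they do not check the deleted exon. Nor can they tell ARF from p16 in the libraries labelled WT-shARF. For this reason the groups are called by their labels throughout.

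The D-type cyclins and Cdk4 were the abundant genes of this set and the retinoblastoma family the rarest. Per kilobase of coding sequence, mean RNA in WT-shSCR was 377 ± 16.1 CPM (SD, n = 2) for Cdk4, 272 ± 23.2 for Ccnd2, 164 ± 8.05 for Ccnd1, 128 ± 2.16 for Ccnd3 and 73.1 ± 7.95 for Ccne1. Cdk6 and Ccne2 followed at 19.3 ± 2.1 and 18.2 ± 2.07 CPM per kilobase and did not differ beyond their spread. Rbl2, Rbl1 and Rb1 were last at 8.25 ± 2.28, 6.16 ± 3.03 and 4.81 ± 1.79 CPM per kilobase, with overlapping spreads. The order of footprints in the same cells was another one. Ccnd2 led at 944 ± 97.1 CPM per kilobase, and Ccnd1 and Cdk4, at 245 ± 33.7 and 243 ± 11.4, lay within each other's spread. Ccnd3 had 148 ± 0.799, Ccne1 54.4 ± 8.24, Ccne2 45.4 ± 6.09 and Cdk6 29.3 ± 6.91 CPM per kilobase of footprints. Rb1, Rbl1 and Rbl2 had 8.31 ± 0.344, 5.72 ± 2.57 and 3.06 ± 1.07 CPM per kilobase.

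**Figure D1:**
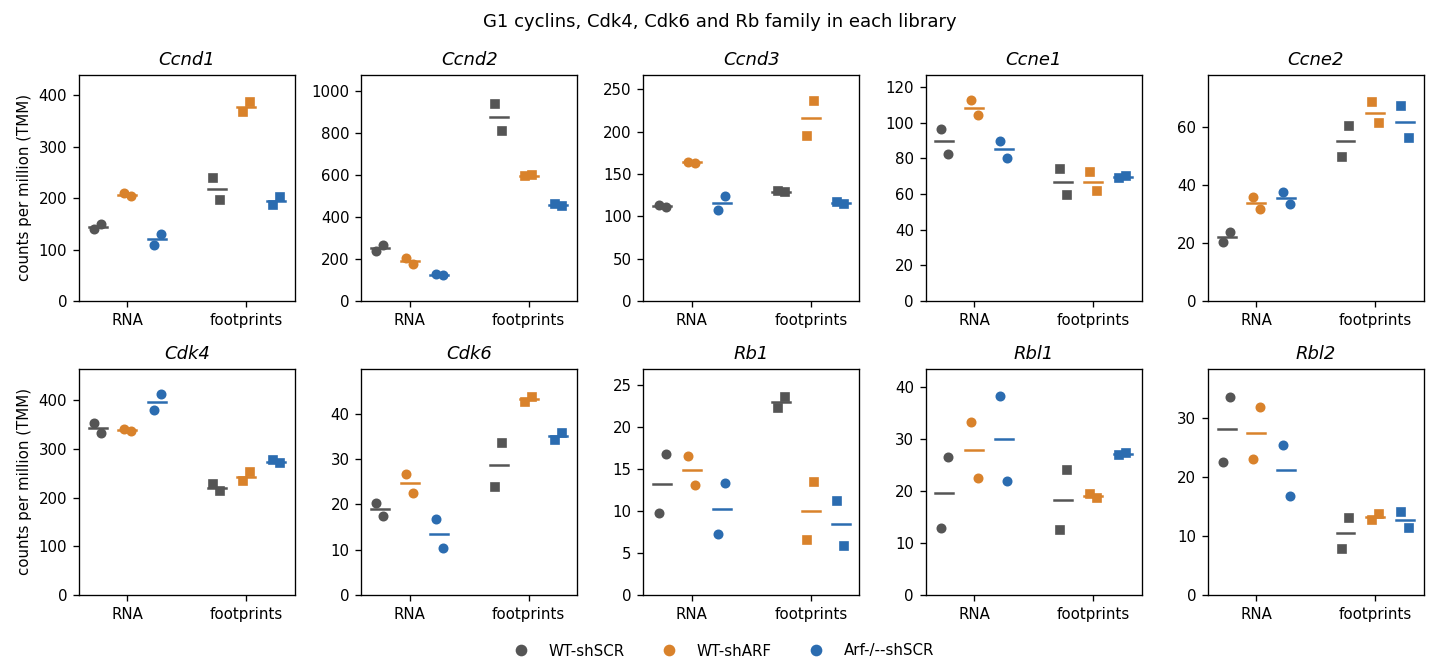
Level of each of the 10 genes in CPM (linear axis from 0, TMM over the 6 libraries of an assay) for RNA (circles) and footprints (squares). Points are the 2 libraries of a group and lines their mean. Ccnd2 steps down from WT-shSCR over WT-shARF to Arf-/--shSCR in both assays, while Ccnd1 and Ccnd3 stand highest in the libraries labelled WT-shARF.

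Ccnd2 was the only member called in RNA after Arf knockout. A count of 1 of 10 members is near the 7.93% called among all genes tested. Ccnd2 (cyclin D2, chr6:127125162-127152193 in mm10, minus strand) had 237 and 267 CPM of RNA in WT-shSCR and 127 and 122 CPM in Arf-/--shSCR. Both knockout libraries lay below both controls, and the fall was 2.03-fold (-1.02 ± 0.16, adjusted p = 0.000312). The RNA call held under every alternative setting and without any single library. Ribosome footprints on Ccnd2 fell as well, from 938 and 811 CPM to 464 and 450.1 CPM (1.9-fold, -0.93 ± 0.086, adjusted p = 1.10e-09), a call that held in 10 of 12 alternatives and was lost without either WT-shSCR replicate (adjusted p = 0.0849 and 0.0724, log2 change -0.80 and -1.02). In the libraries labelled WT-shARF the RNA was 205 and 178 CPM, and its change did not pass the test (-0.40 ± 0.14, adjusted p = 0.0808), although with the replicate numbers as a block it did (adjusted p = 0.0359). Footprints there were 595 and 597 CPM and fell by a factor of 1.47 (-0.55 ± 0.081, adjusted p = 9.63e-06). The fall was deeper in the knockout. Set directly against the libraries labelled WT-shARF, Arf-/--shSCR was lower in Ccnd2 RNA (-0.63 ± 0.14, adjusted p = 0.0331) and in Ccnd2 footprints (-0.38 ± 0.072, adjusted p = 0.00234). With the replicate block the RNA call was lost (adjusted p = 0.0620).

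Ccnd1 and Ccnd3 went up in the libraries labelled WT-shARF and not in the knockout. Ccnd1 (cyclin D1, chr7:144929931-144939925, minus strand) had 139.7 and 149.7 CPM of RNA in WT-shSCR, 209.6 and 204 CPM in the WT-shARF-labelled libraries and 109 and 131 CPM in Arf-/--shSCR. The libraries labelled WT-shARF stood above all the others, 1.43-fold over WT-shSCR (0.51 ± 0.14, adjusted p = 0.0258). Footprints on Ccnd1 were 238 and 196 CPM, 368 and 386 CPM and 188 and 202 CPM in the same order, a rise of 1.73-fold in the libraries labelled WT-shARF (0.79 ± 0.10, adjusted p = 1.19e-06). Ccnd1 was called in neither assay after knockout, where the 95% interval was -0.63 to 0.09 for RNA and -0.39 to 0.096 for footprints. Ccnd3 (cyclin D3, chr17:47505051-47599691, plus strand) followed the same course. Its RNA was 114 and 111 CPM in WT-shSCR, 165 and 164 CPM in the WT-shARF-labelled libraries and 107 and 125 CPM in Arf-/--shSCR (0.54 ± 0.15, adjusted p = 0.0269 for WT-shARF). Its footprints were 129.8 and 129 CPM, 196 and 237 CPM and 117 and 115 CPM (0.75 ± 0.12, adjusted p = 5.38e-05 for WT-shARF). The summed footprints of the 9 fibroblast markers were also highest in the WT-shARF-labelled libraries, at 40699 and 40564 CPM against 33217 and 30724 CPM in WT-shSCR and 28690 and 28269 CPM in Arf-/--shSCR, and their part in the Ccnd1 and Ccnd3 results was not tested. The mouse annotation holds a pseudogene, Ccnd3-ps, whose likeness to Ccnd3 was not examined. Reads that matched both would be not unique and may be missing from the Ccnd3 counts.

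The test of knockout against the libraries labelled WT-shARF compared both conditions without the shared WT-shSCR controls. Arf-/--shSCR was lower in Ccnd1 RNA (-0.80 ± 0.15, adjusted p = 0.0105) and in Ccnd1 footprints (-0.95 ± 0.089, adjusted p = 1.00e-06). Ccnd3 footprints were lower too (-0.90 ± 0.11, adjusted p = 4.15e-05), while Ccnd3 RNA missed the threshold (-0.51 ± 0.15, adjusted p = 0.0913). All 3 D-type cyclins were thus called lower in footprints in this comparison, and 2 of 10 members were called in RNA and 3 of 10 in footprints, against 2.57% and 8.23% of all genes tested. Without either WT-shARF replicate no member was called in RNA or footprints here. Across all genes the RNA calls then fell from 273 to as few as 6 and the footprint calls from 900 to as few as 0, and the log2 change of Ccnd1 footprints stayed between -0.98 and -0.91 without either of them. In the libraries labelled WT-shARF against WT-shSCR, 2 of 10 members were called in RNA (7.28% of all genes tested) and 4 of 10 in footprints (11.1% of all genes tested). The RNA calls of Ccnd1 and Ccnd3 were less firm than the footprint calls. DESeq2 gave adjusted p = 0.0840 and 0.0932 for their RNA, and Ccnd3 RNA lost its call without any 1 of the 4 libraries (adjusted p 0.0686 to 0.2), as Ccnd1 RNA did without WT-shSCR replicate 1 (0.126) or either WT-shARF replicate (0.173 and 0.175). The footprint calls of Ccnd1, Ccnd2 and Ccnd3 held in all 12 alternatives.

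**Figure D2:**
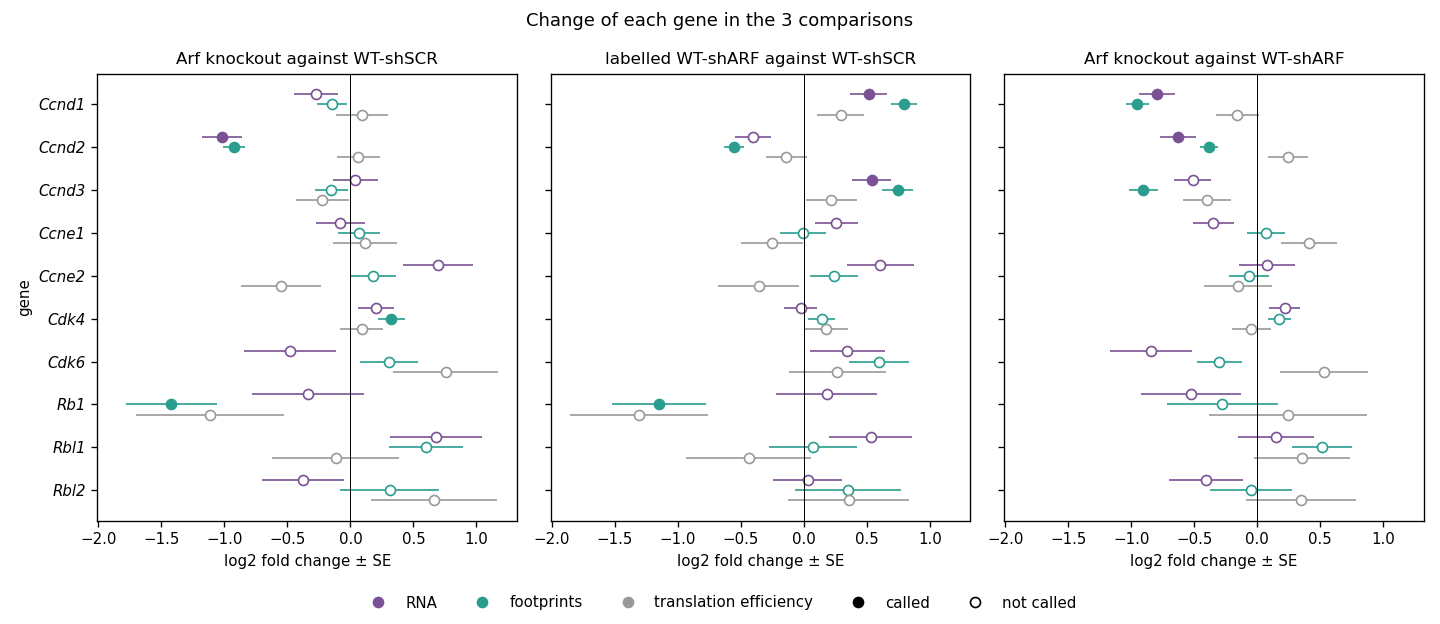
Log2 fold change ± SE of RNA (purple), footprints (green) and translation efficiency (grey) for each gene in the 3 comparisons, with filled points for calls at an adjusted p under 0.05. Ccnd2 is called lower in both assays on the left, Ccnd1 and Ccnd3 are called higher in the middle panel, and no grey point is filled.

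The share of Ccnd2 in the summed D-type RNA and footprints was lower in both other groups than in WT-shSCR. As a share of their summed CPM per kilobase, Ccnd2 took 48.2% ± 1.63 (SD, n = 2) of the RNA in WT-shSCR, 32.9% ± 1.99 in the libraries labelled WT-shARF and 33.5% ± 3.3 in Arf-/--shSCR. Ccnd1 took 29% ± 0.0693, 37.3% ± 0.89 and 33.7% ± 2.07, and Ccnd3 22.8% ± 1.56, 29.8% ± 1.1 and 32.9% ± 1.24. Ccnd2 thus led the RNA in WT-shSCR, and the 3 genes each took 29.8% to 37.3% in the other groups. Of the footprints, Ccnd2 had 70.6% ± 0.319 in WT-shSCR, 48.9% ± 1.71 in the libraries labelled WT-shARF and 58.3% ± 1.19 in Arf-/--shSCR, and it kept the largest share in all 3 groups. The sum of D-type footprints was 1337 ± 132 CPM per kilobase in WT-shSCR and 1316 ± 49.8 in the libraries labelled WT-shARF, within each other's spread. It was 845 ± 0.629 in Arf-/--shSCR, below both. The summed RNA was 564 ± 29.1, 628 ± 25.9 and 401 ± 27.9 CPM per kilobase in the same order. With 2 libraries against 2, an exact permutation test cannot go below p = 0.333, and these shares and sums carry no test.

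**Figure D3:**
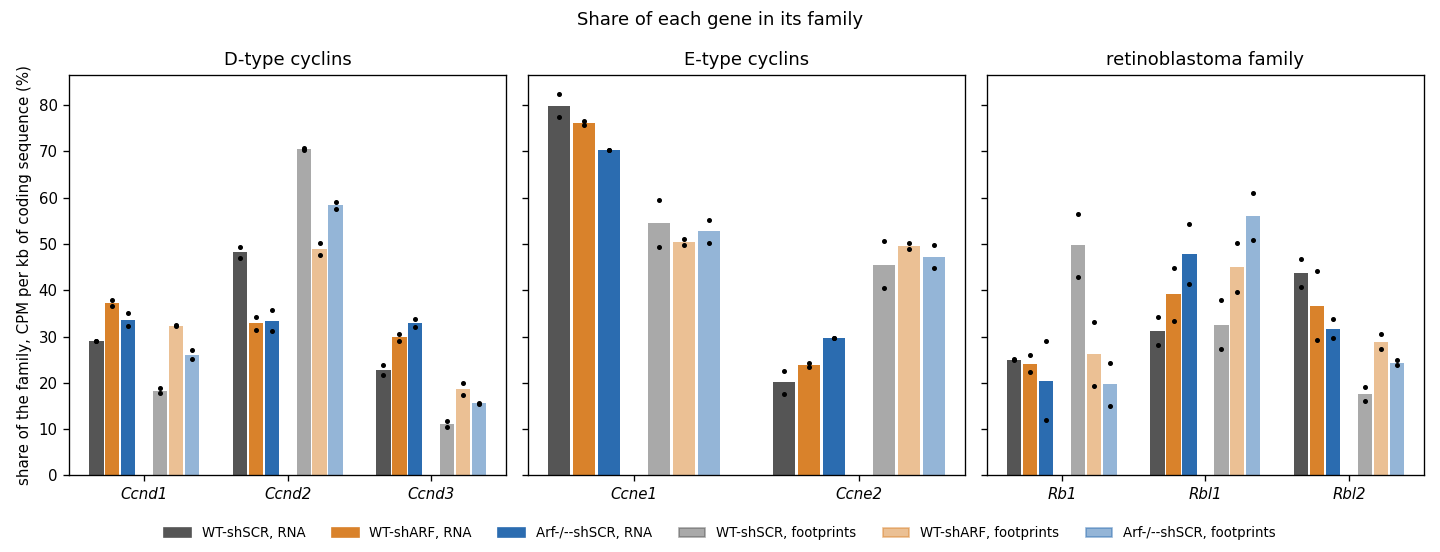
Share (%) of each gene in the summed CPM per kilobase of its family, as bars from 0 for the mean of 2 libraries, dark for RNA and light for footprints, with a dot per library. Ccnd2 holds 70.6% of D-type footprints in WT-shSCR and 48.9% in the libraries labelled WT-shARF, and the dots of the retinoblastoma family are far apart within groups.

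The kinase Cdk4 (chr10:127063534-127067920, plus strand) moved little. Its RNA was 353 and 332 CPM in WT-shSCR, 340.4 and 337 CPM in the WT-shARF-labelled libraries and 379 and 412 CPM in Arf-/--shSCR. The knockout libraries were the highest, but neither RNA change passed the test (0.20 ± 0.15, adjusted p = 0.436 in the knockout and -0.025 ± 0.13, adjusted p = 0.949 for WT-shARF). Footprints on Cdk4 were 228 and 213 CPM, 233 and 253 CPM and 278 and 270.0 CPM, and the rise after knockout was called at 1.25-fold (0.32 ± 0.11, adjusted p = 0.0332). That call was lost without any 1 of the 4 libraries, where adjusted p ran from 0.117 to 0.219, and with upper quartile factors (0.0584). Cdk4 footprints in the knockout against the libraries labelled WT-shARF were not called (0.18 ± 0.091, adjusted p = 0.288, 95% interval -0.016 to 0.37).

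Cdk6 (chr5:3341485-3531008, plus strand), the other partner of the D-type cyclins, was far rarer. Its RNA was 20.3 and 17.4 CPM in WT-shSCR, 26.8 and 22.5 CPM in the WT-shARF-labelled libraries and 16.7 and 10.3 CPM in Arf-/--shSCR. Its footprints were 23.9 and 33.5 CPM, 42.6 and 43.7 CPM and 34.2 and 35.8 CPM, with the libraries labelled WT-shARF above both other groups. No Cdk6 change between conditions was called, and the largest in RNA and footprints were its footprints in the libraries labelled WT-shARF (0.60 ± 0.24, adjusted p = 0.108) and its RNA in the knockout against those (-0.84 ± 0.32, adjusted p = 0.206). Leaving out 1 library took each of these under the threshold, to an adjusted p of 0.0387 without WT-shSCR replicate 2 for the footprints and 0.0435 without Arf-/--shSCR replicate 1 for the RNA. Cdk4 made up 95.1% ± 0.306 of the summed Cdk4 and Cdk6 RNA per kilobase in WT-shSCR and 89.2% ± 2.72 of their footprints. In the libraries labelled WT-shARF it made up 85.8% ± 0.463 of the footprints and in Arf-/--shSCR 89.4% ± 0.49.

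Promoter sequences were read for 6 of the 10 genes from RefSeq (GRCm38.p6, the assembly of mm10), as the 250 bases before an annotated start. Ccnd1, Ccnd2, Ccne2 and Rb1 had no entry in the promoter set used, so their promoters were not searched. Cdk4, called higher in footprints and not in RNA, and Rbl1, a retinoblastoma family gene with a match to the E2F letters, are printed. The E-box is the site of Myc, and the E2F site is that of the factors the retinoblastoma proteins bind. Capitals mark CACGTG in Cdk4 and TTTGGCGC, TTTCCCGC, TTTCGCGC or TTTGCCGC in Rbl1, on either strand.
Cdk4, chr10:127063285-127063534, plus strand: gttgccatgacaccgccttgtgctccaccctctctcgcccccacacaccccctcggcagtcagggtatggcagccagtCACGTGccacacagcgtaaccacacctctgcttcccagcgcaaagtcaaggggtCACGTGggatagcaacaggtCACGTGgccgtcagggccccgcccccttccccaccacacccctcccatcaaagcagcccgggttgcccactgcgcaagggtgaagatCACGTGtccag
Rbl1, chr2:157204535-157204784, minus strand: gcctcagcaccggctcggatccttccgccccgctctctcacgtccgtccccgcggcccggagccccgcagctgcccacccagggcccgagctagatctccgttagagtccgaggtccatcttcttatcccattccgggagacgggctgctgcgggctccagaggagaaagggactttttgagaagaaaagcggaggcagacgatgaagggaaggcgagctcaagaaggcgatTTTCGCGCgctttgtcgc
The Cdk4 window held 4 matches of CACGTG, which 6.02% of the 32851 promoter windows of the same length held at least once, and Cdk6 held 1. The E2F letters occurred in 1.86% of windows and, among the 6 genes, in Rbl1 alone. GGGCGG, a GC box, was in Rbl1, Ccne1 (4 matches), Cdk4 and both annotated starts of Ccnd3, and in 32.7% of all windows. TTTGAA, the CHR element of cell cycle genes, was in Rbl2 and 16.0% of all windows, and TGACTCA, an AP-1 site, in none of the 6 genes and 4.46% of all windows. Matches of different motifs did not overlap in these windows. A match describes letters in the window and is not evidence of binding.

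Among the inhibitors of these kinases, Cdkn1a (p21) changed in both conditions and both assays. Its RNA was 119 and 136 CPM in WT-shSCR, 96.5 and 61.1 CPM in the WT-shARF-labelled libraries and 24.4 and 32.2 CPM in Arf-/--shSCR, with no overlap between groups. It fell 4.52-fold after knockout (-2.18 ± 0.22, adjusted p = 3.78e-06) and 1.66-fold in the libraries labelled WT-shARF (-0.73 ± 0.19, adjusted p = 0.0142). Its footprints fell 3.07-fold (-1.62 ± 0.10, adjusted p = 1.53e-13) and 1.34-fold (-0.42 ± 0.089, adjusted p = 0.00133). Cdkn2b, which encodes the INK4 protein p15, lost footprints in the knockout, from 83.6 and 63 CPM to 21.7 and 25.7 CPM (-1.62 ± 0.20, adjusted p = 2.61e-07), while its RNA missed the threshold (-1.07 ± 0.37, adjusted p = 0.0872). Cdkn2a footprints also fell in the knockout (-1.10 ± 0.19, adjusted p = 4.67e-05). Cdkn1b (p27), Cdkn1c (p57), Cdkn2c (p18) and Cdkn2d (p19 of the INK4 family) were called in neither assay of either condition, with Cdkn2c at 3 to 14 footprint counts per library and too low to be tested in the libraries labelled WT-shARF. In all, 1 of 7 inhibitors was called in RNA after knockout and 3 of 7 in footprints, each of them lower. Of all genes tested, 3.99% and 8.95% were called lower there. In the libraries labelled WT-shARF, Cdkn1a was called lower and Cdkn2a higher in both assays, 2 of 7 tested in RNA and 2 of 6 in footprints, against 7.28% and 11.1% of all genes.

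Of the retinoblastoma family, Rb1 was called, in footprints and not in RNA, and the test of the difference between the assays (TE) did not pass in either condition (adjusted p = 0.759 in the knockout and 0.677 for WT-shARF). Rb1 (chr14:73183673-73325822, minus strand) had 22.3 and 23.6 CPM of footprints in WT-shSCR, from 68 and 60 counts. It had 6.49 and 13.5 CPM in the WT-shARF-labelled libraries (18 and 65 counts) and 11.2 and 5.8 CPM in Arf-/--shSCR (58 and 30 counts). All 4 treated or knockout libraries lay below both controls, but the replicates of each of these groups lay far apart. The fall was 2.68-fold after knockout (-1.42 ± 0.36, adjusted p = 0.0047) and 2.21-fold in the libraries labelled WT-shARF (-1.15 ± 0.37, adjusted p = 0.0413). Rb1 RNA was 9.79 and 16.8 CPM in WT-shSCR, 16.6 and 13.1 CPM in the WT-shARF-labelled libraries and 7.28 and 13.3 CPM in Arf-/--shSCR, with overlap between all groups and no call (95% interval of the change after knockout -1.27 to 0.59). With these 3 calls in the knockout (Ccnd2, Rb1 and Cdk4), 3 of 10 members were called in footprints there, against 18.5% of all genes tested. The Rb1 call in the knockout was lost without either WT-shSCR replicate (adjusted p = 0.209 and 0.217) or without Arf-/--shSCR replicate 2 (log2 change -1.02, adjusted p = 0.132). Without either WT-shSCR replicate no gene at all was called in that comparison. In the libraries labelled WT-shARF the Rb1 call was lost with DESeq2 (0.0954), with all groups in one fit (0.0534), without either WT-shSCR replicate (0.0608 and 0.0949), and without WT-shARF replicate 1 (log2 change -0.76, adjusted p = 0.369). The coding sequence of Rb1 overlaps Rcbtb2 on the opposite strand. The counting command in the study's methods names no strand option, and HTSeq counts by strand unless told otherwise.

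Rbl1 (p107, chr2:157145893-157204534, minus strand) and Rbl2 (p130, chr8:91070057-91123844, plus strand), the relatives of Rb1, were called in no comparison of conditions. Rbl1 RNA was 12.8 and 26.5 CPM in WT-shSCR, 33.2 and 22.5 CPM in the WT-shARF-labelled libraries and 38.2 and 21.9 CPM in Arf-/--shSCR, a spread within groups as wide as that between them. Its footprints were 12.5 and 24, 19.5 and 18.6 and 26.9 and 27.3 CPM, highest in both knockout libraries, with a change of 0.60 ± 0.29, adjusted p = 0.168 (95% interval -0.0015 to 1.20). Rbl2 RNA was 22.6 and 33.6, 23.1 and 31.9 and 25.5 and 16.7 CPM. Its footprints were 7.87 and 13, 12.6 and 13.7 and 14 and 11.4 CPM, and the groups overlapped in both assays. At 24 to 136 counts per library, the 95% interval of the Rbl2 change after knockout reached from -1.05 to 0.30 in RNA and from -0.49 to 1.12 in footprints, so that a doubling of footprints could not be told from no change. Rb1 held 49.7% ± 9.55 of the family's footprints per kilobase in WT-shSCR, 26.2% ± 9.73 in the libraries labelled WT-shARF and 19.7% ± 6.59 in Arf-/--shSCR. Rbl1 held 32.6% ± 7.43, 44.9% ± 7.45 and 56% ± 7.23.

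Neither E-type cyclin was called in any of these comparisons. Ccne1 (cyclin E1, chr7:38097984-38107534, minus strand) had 96.4 and 82.6 CPM of RNA in WT-shSCR, 113 and 104 CPM in the WT-shARF-labelled libraries and 89.9 and 80.3 CPM in Arf-/--shSCR. Its footprints were 73.7 and 59.5, 72.2 and 61.5 and 68.9 and 70 CPM, and the 95% interval of their change was -0.27 to 0.41 in the knockout and -0.38 to 0.37 for WT-shARF. Ccne2 (cyclin E2, chr4:11191351-11204779, plus strand) had 20.3 and 23.9 CPM of RNA in WT-shSCR, 35.9 and 31.6 CPM in the WT-shARF-labelled libraries and 37.5 and 33.5 CPM in Arf-/--shSCR. Both other groups lay above WT-shSCR, but neither change passed the test (0.70 ± 0.28, adjusted p = 0.136 in the knockout and 0.61 ± 0.27, adjusted p = 0.178 for WT-shARF). Ccne2 footprints were 49.8 and 60.3, 68.6 and 61.3 and 67.3 and 56.1 CPM, and the change after knockout was 0.18 ± 0.18, adjusted p = 0.549. The E-type share of Ccne2 in RNA per kilobase was 20.1% ± 3.56, 23.9% ± 0.62 and 29.6% ± 0.00383, and in footprints 45.6% ± 7.08, 49.6% ± 0.847 and 47.2% ± 3.51.

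Downstream, many genes of S phase and mitosis rose in both conditions. Of 17 E2F target genes of the G1/S transition, 9 were called higher in RNA and 14 in footprints after knockout, and 7 and 9 in the libraries labelled WT-shARF, with none lower. Over all genes tested, 3.94% were called higher in RNA and 9.57% in footprints after knockout, and 3.11% and 5.63% in the libraries labelled WT-shARF. The median log2 change of the G1/S genes was 0.67 in RNA and 0.70 in footprints after knockout, where the medians of all genes were -0.0038 and -0.00087. In the libraries labelled WT-shARF the medians were 0.49 and 0.53, with -0.0012 and -0.0028 over all genes. Tk1, thymidine kinase, changed by 1.14 ± 0.19, adjusted p = 0.000523 in knockout RNA, and by 0.45 ± 0.18, adjusted p = 0.139 in that of WT-shARF. Mcm5, of the replicative helicase, changed by 0.97 ± 0.17, adjusted p = 0.000945 and 0.54 ± 0.15, adjusted p = 0.0259. Rrm1 and Rrm2, the subunits of ribonucleotide reductase, changed by 0.80 ± 0.16 and 0.74 ± 0.15 in knockout RNA (adjusted p = 0.00253 and 0.00428). Of 11 G2/M genes, 10 were called higher in RNA in each condition, and 11 and 10 in footprints. Mki67, Top2a, Ccnb1 and Cdc20 were higher by 1.14 ± 0.16, 1.24 ± 0.16, 1.27 ± 0.17 and 1.21 ± 0.16 in knockout RNA. Between the knockout and the libraries labelled WT-shARF, 1 of 17 G1/S genes and 0 of 11 G2/M genes were called in RNA. In footprints 1 and 2 were called, and each called gene was higher in the knockout. Over all genes tested in that comparison, 1.38% were called higher in RNA and 3.93% in footprints.

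Several genes of the S-phase kinases and cyclin A rose too. Of 5 tested, 3 were called higher in knockout RNA and 2 in the libraries labelled WT-shARF, and 4 in the footprints of each. Cdk2, the partner of the E-type cyclins, was not among those called. For this and the following lists, the shares over all genes in knockout RNA were 3.94% higher and 3.99% lower. In knockout footprints they were 9.57% and 8.95%. For WT-shARF they were 3.11% and 4.17% in RNA and 5.63% and 5.5% in footprints. Cdk1, the mitotic kinase, rose by 0.83 ± 0.15, adjusted p = 0.00183 and 0.73 ± 0.14, adjusted p = 0.00111 in RNA. Ccna2, cyclin A2, rose by 0.87 ± 0.21, adjusted p = 0.0118 and 1.03 ± 0.18, adjusted p = 0.000346. Cdc25a, a phosphatase that activates these kinases, was called in footprints (1.20 ± 0.22, adjusted p = 0.000103 and 0.98 ± 0.24, adjusted p = 0.00441). Cks1b, a kinase subunit, rose by 0.96 ± 0.23, adjusted p = 0.0122 in knockout RNA. Of the E2F and DP factors, 9 of 10 were tested. None was called in knockout RNA and Tfdp1, the DP partner of E2F, was called higher in the libraries labelled WT-shARF (0.64 ± 0.17, adjusted p = 0.0164). In knockout footprints Tfdp1 rose (0.71 ± 0.16, adjusted p = 0.0015) and E2f1 fell (-0.81 ± 0.28, adjusted p = 0.0393), and for WT-shARF Tfdp1 rose (0.58 ± 0.18, adjusted p = 0.0281). Mybl2 (B-Myb) was the 1 gene of the MuvB and B-Myb list called in RNA, higher in both conditions (1.13 ± 0.22, adjusted p = 0.00288 and 0.73 ± 0.22, adjusted p = 0.0347), of 5 tested. In footprints, Mybl2 and Rbbp4, of 6 tested, were called higher in the knockout and none for WT-shARF. None of the 3 genes of the CDK-activating kinase was called in RNA or footprints against WT-shSCR. Of 9 genes of cyclin turnover, none was called in RNA. Skp2, the F-box protein that marks p27 for degradation, rose in footprints in both (0.80 ± 0.24, adjusted p = 0.0155 and 0.88 ± 0.25, adjusted p = 0.0181), and Rbx1, a ubiquitin ligase subunit, in the knockout (0.38 ± 0.14, adjusted p = 0.0467). Of the upstream growth-signal factors, none of 7 was called in RNA, and Fos alone of 8 fell in footprints in both (-1.46 ± 0.47, adjusted p = 0.0273 and -1.78 ± 0.52, adjusted p = 0.0225).

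**Figure D4:**
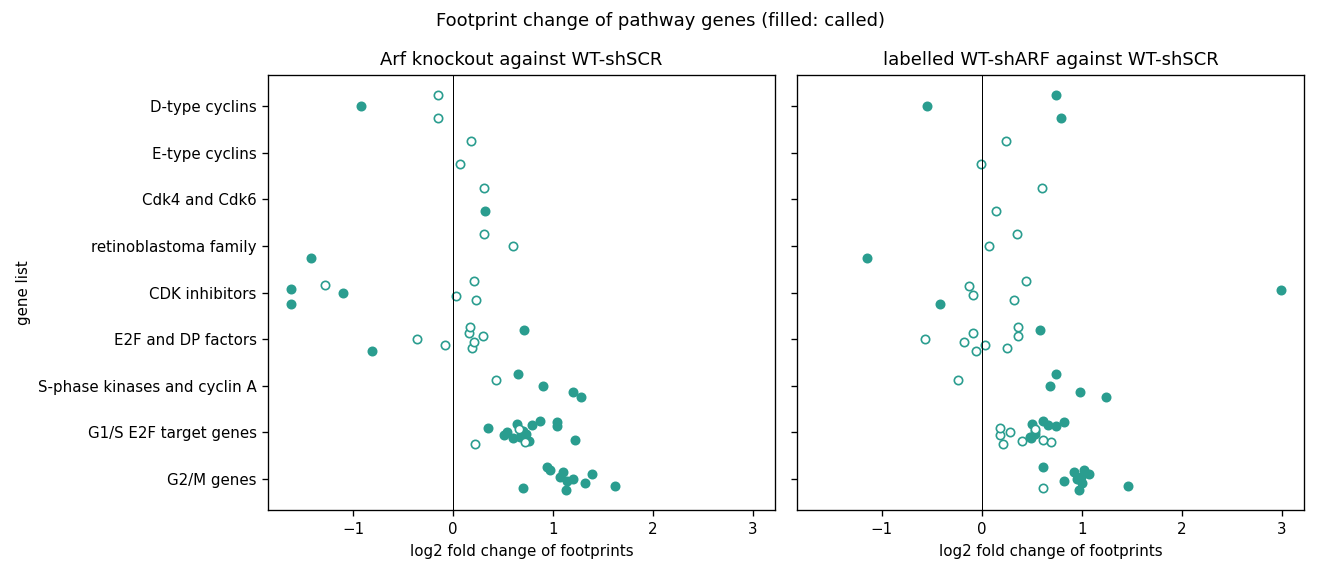
Log2 fold change of footprints for each tested gene of 9 lists in the knockout (left) and the libraries labelled WT-shARF (right), filled where called. The G1/S and G2/M lists lie to the right of 0 in both panels, while D-type cyclins spread to both sides in the right panel, and the point near 3 in that panel is Cdkn2a.

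Translation efficiency (TE), the change of footprints beyond that of RNA, was tested with an interaction term between assay and condition in 8 libraries. No member was called in any of the 3 TE comparisons, where 0.194% (knockout), 0.0354% (libraries labelled WT-shARF) and 0.043% (knockout against those) of all genes were. Under an unadjusted threshold of 0.05 edgeR placed Rb1 in the libraries labelled WT-shARF (-1.31 ± 0.55, adjusted p = 0.677) and Ccnd3 in the knockout against those (-0.40 ± 0.19, adjusted p = 0.653). That was 1 of 10 members in each, where 751 of 11289 and 880 of 11632 genes tested were under the same threshold. In the knockout against WT-shSCR it was 0 of 10 members and 773 of 11314 genes. With DESeq2 no member was called either. The 95% interval of the TE change of Ccnd2 was -0.29 to 0.42 in the knockout and -0.47 to 0.20 for WT-shARF. For Ccnd1 it was -0.33 to 0.52 and -0.082 to 0.67, and for Ccnd3 -0.66 to 0.22 and -0.19 to 0.63. For Rb1, at 18 to 68 counts per library, it was -2.34 to 0.11 and -2.42 to -0.19, and in the knockout a halving and no change both lay within it.

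Within each group, by contrast, the members differed widely in footprints relative to RNA. The 4 libraries of a group were compared between assays, on a scale where 0 is the typical gene. In WT-shSCR 5 of 10 members were called (39.6% of all genes), in the libraries labelled WT-shARF 8 (43.8%) and in Arf-/--shSCR 5 (44%), so the number called was near the background in WT-shSCR and Arf-/--shSCR. Ccnd2 was the highest of the 10. Its log2 footprints over RNA, for equally numbered libraries, were 1.99 and 1.60 in WT-shSCR, 1.54 and 1.75 in the libraries labelled WT-shARF and 1.87 and 1.89 in Arf-/--shSCR. The fitted values were 1.83 ± 0.13, adjusted p = 5.91e-13 in WT-shSCR, 1.69 ± 0.11, adjusted p = 1.80e-14 for WT-shARF and 1.93 ± 0.12, adjusted p = 1.51e-07 in the knockout. Ccnd1 was called higher in all 3 groups (0.62 ± 0.15, 0.91 ± 0.11 and 0.76 ± 0.14), while Ccnd3 was called for WT-shARF (0.45 ± 0.13) and not in the other two.

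The E-type cyclins lay on opposite sides. Ccne2 had more footprints than its RNA in all 3 groups (1.36 ± 0.27, 1.00 ± 0.20 and 0.85 ± 0.19), and Ccne1 fewer, called for WT-shARF (-0.40 ± 0.19, -0.65 ± 0.15 and -0.24 ± 0.15). The kinases did likewise. Cdk4 was called lower in all 3 groups (-0.61 ± 0.13, -0.43 ± 0.11 and -0.47 ± 0.11), and Cdk6 was called higher for WT-shARF and in the knockout (0.61 ± 0.32, 0.88 ± 0.23 and 1.41 ± 0.27). Rbl2 was the lowest of the 10 and was called in WT-shSCR and for WT-shARF (-1.38 ± 0.38, -1.03 ± 0.31 and -0.68 ± 0.32). Rb1 and Rbl1 were called in none of the 3 groups. Rb1 gave log2 footprints over RNA of 1.19 and 0.49 in WT-shSCR, -1.36 and 0.038 in the libraries labelled WT-shARF and 0.62 and -1.20 in Arf-/--shSCR, and its replicates were furthest apart in Arf-/--shSCR.

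**Figure D5:**
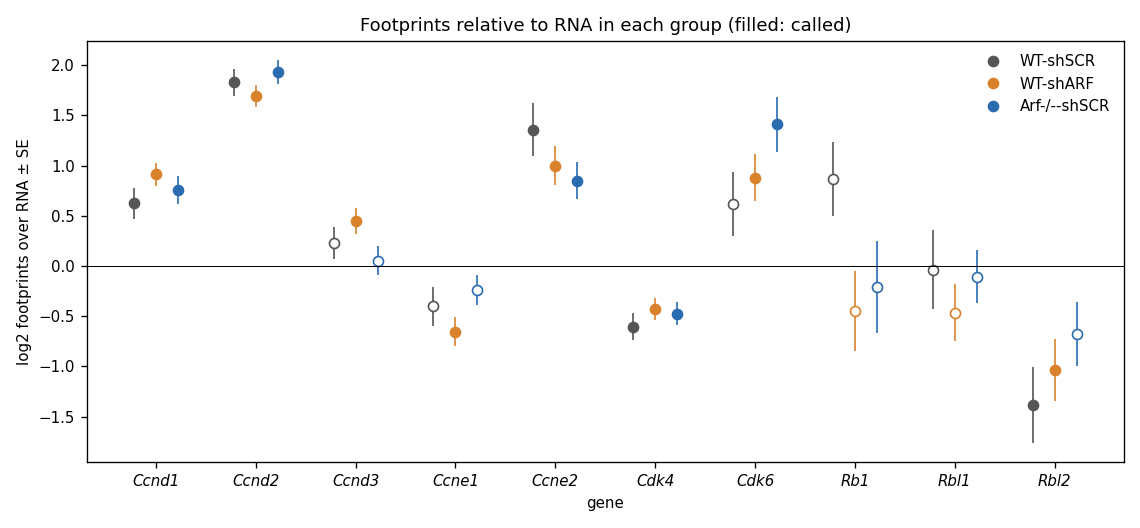
Log2 of footprints over RNA ± SE for each gene within WT-shSCR, WT-shARF and Arf-/--shSCR, where 0 is the typical gene and filled points are called. Ccnd2 lies between 1.69 and 1.93 in all groups, Cdk4 below 0 in all of them, and Ccne1 and Ccne2 on opposite sides of 0.

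Genes with a course most like that of a called member were looked up among the 6607 genes with at least 20 counts in every library, by Pearson's r of log2(CPM + 1) over the 12 libraries with each gene centred within its assay. The libraries share their groups, and r is a description. Ccnd1 was most like Col1a1 (r = 0.963), Pcolce (r = 0.951) and Cdkn2a (r = 0.950), and Ccnd3 most like Ccnd1 (r = 0.945), Cdkn2a (r = 0.938) and Pcolce (r = 0.937). Ccnd1 was thus the gene most like Ccnd3, and both had Cdkn2a, highest in the libraries labelled WT-shARF, among the closest. Ccnd2 was most like Amot (r = 0.990), Serpine2 (r = 0.984) and Col4a2 (r = 0.977). Cdk4 was most like Ptbp1 (r = 0.975), Rpl14 (r = 0.956) and U2af2 (r = 0.948), of which Rpl14 encodes a ribosomal protein and Ptbp1 and U2af2 splicing factors. Rb1, at 18 counts in its lowest library, was most like Apc (r = 0.927), Aff1 (r = 0.916) and Lemd2 (r = 0.899).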

How the data were processed

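RNAseq and ribosome profiling (RNase T1) of MEFs gave 12 libraries. The authors clipped adapters, split reads by barcode, moved the molecular identifiers off the reads with UMI-tools, cut the barcodes off with cutadapt, removed rRNA reads with Bowtie2, mapped what remained with TopHat (mm10) and used HTSeq to count reads over the coding sequence. Each deposited table holds those raw counts, one gene per line, without normalization. Removal of duplicates by identifier is not named, so reads may not be independent molecules, and HTSeq's rows for reads without a gene were left out (alignments that were not unique were 79.22 to 81.38% of the table total in RNAseq and 46.34 to 52.92% in RiboSeq).

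From these counts, edgeR 4.0.16 in R 4.3.3 (TMM, filterByExpr, quasi-likelihood test, Benjamini-Hochberg over all genes tested) compared 4 libraries for RNA or footprints, 8 libraries for an interaction term of assay with condition (TE), and the 4 libraries of a group between assays. SE is the absolute log2 fold change over the root of F. DESeq2 1.42.0, other scaling factors and filters, a replicate block, a joint fit and leaving out each library served as alternatives. The fits were tested on simulated counts. Correlations of deviations between equally numbered libraries were low (-0.030 to 0.065, highest for RNA and footprints of Arf-/--shSCR). Low values cannot exclude that libraries of equal number came from the same culture. Gene positions and coding lengths came from GENCODE M21 (GRCm38) and promoters from RefSeq (GRCm38.p6). All 10 members, all CDK inhibitors, and up to 4 called genes of each other pathway list by adjusted p were named, with the 3 genes of highest r to each called member. Members and lists were chosen with earlier results of these data known. Intervals cover counting and replicate error of 2 libraries per group.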

Additional observations from a re-analysis of the deposited data

How the results depend on the processing

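Of the 1230 values of single members under the alternatives, 1151 kept their direction and their side of the threshold, 35 lost and 4 gained a call, and 40 changed sign, all of them uncalled. The RNA call of Ccnd2 after knockout and the footprint calls of Ccnd1, Ccnd2 and Ccnd3 in the libraries labelled WT-shARF held in all 12 alternatives. Members called higher in RNA for WT-shARF numbered 2, with DESeq2 0, and 0 to 1 when a library was left out. Members called lower in RNA for WT-shARF numbered 0, and 1 with the replicate block. Members called lower in RNA of the knockout against WT-shARF numbered 2, with the replicate block 1, and 0 to 3 when a library was left out. Members called higher in knockout footprints numbered 1, with upper quartile factors 0, and 0 in every fit without a library. Members called lower were 2 in knockout footprints (0 to 2 without a library), 2 in footprints for WT-shARF (1 with DESeq2, 1 with all groups in one fit, 1 to 2 without a library) and 3 in footprints of the knockout against WT-shARF (0 to 3 without a library). With 1 library left in an arm, that library is assumed to vary like the other group. The replicate block, for whose numbers a pairing was not shown, changed no other call of a member. In the whole tables it moved the count of TE calls in all genes for WT-shARF from 4 to 35 and of the knockout against WT-shARF from 5 to 14.

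Sign changes of log2 values in a full set of libraries were Rbl2 RNA for WT-shARF with the replicate block (-0.032), Ccne1 footprints for WT-shARF with the block (0.0095) or no filter (0.0046), and Rbl1 TE in the knockout with no filter (0.012). With a library left out, sign changed in RNA after knockout for Ccnd3 (-0.068 to 0.15), Ccne1 (-0.17 to 0.043) and Rb1 (-0.82 to 0.065), in RNA for WT-shARF for Cdk4 (-0.069 to 0.030), Rb1 (-0.20 to 0.57) and Rbl2 (-0.25 to 0.31), and in RNA of the knockout against WT-shARF for Ccne2 (-0.023 to 0.16) and Rbl1 (-0.30 to 0.50). It changed in knockout footprints for Ccnd1 (-0.28 to 0.012), Ccne1 (-0.072 to 0.25) and Rbl2 (-0.0070 to 0.71), in footprints for WT-shARF for Ccne1 (-0.15 to 0.16) and Rbl1 (-0.34 to 0.61), and in footprints of the knockout against WT-shARF for Ccne1 (-0.051 to 0.18), Ccne2 (-0.20 to 0.060), Rb1 (-0.82 to 0.39) and Rbl2 (-0.21 to 0.092). For TE it changed in the knockout for Ccnd1 (-0.076 to 0.37), Ccnd2 (-0.11 to 0.33), Cdk4 (-0.00070 to 0.20) and Rbl1 (-0.44 to 0.35), for WT-shARF for Ccnd2 (-0.35 to 0.066) and Cdk6 (-0.088 to 0.58), and in the knockout against WT-shARF for Cdk4 (-0.13 to 0.088) and Rb1 (-0.69 to 1.17). The cause was not tested.

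Over all genes, calls after knockout ranged from 222 to 1057 in RNA (845 as reported), from 0 to 2075 in footprints (1988) and from 6 to 123 in TE (22). For WT-shARF they ranged from 274 to 1011 in RNA (765), from 614 to 1376 in footprints (1147) and from 0 to 50 in TE (4). For the knockout against WT-shARF they ranged from 6 to 798 in RNA (273), from 0 to 1109 in footprints (900) and from 1 to 125 in TE (5). Depth limits the retinoblastoma family, Cdk6 and Ccne2, whose counts were below those of the D-type cyclins and Cdk4 in every library. Ccne2 RNA, which was not called, had 54 and 37 counts in WT-shSCR.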
